A study of Mus musculus with 12 samples.

Results

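The urea cycle and the main routes of amino acid breakdown and interconversion were followed through 46 genes of mouse liver, listed by symbol with earlier results of these data known, out of 22322 gene symbols in the deposited expression tables. All 46 symbols were present. Where a symbol had several transcript rows, the row with the highest mean over the 12 samples stood for the gene. A gene was tested where its mean reached 1 RPKM (reads per kilobase of transcript, scaled to the mapped reads of the sample) in at least 1 group, and 44 of the 46 genes passed this filter. Psat1 and Phgdh, the enzymes that open serine synthesis, did not, with a highest value in any sample of 0.899 RPKM for Psat1 and 0.903 RPKM for Phgdh.

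The study compared the livers of mice with a liver-specific knockout of Bmal1 (KO) with wild-type livers (WT), at 2 points of the circadian cycle, by RNA sequencing. Bmal1, listed in the tables under its symbol Arntl, encodes a core protein of the circadian clock, which binds DNA as a dimer with CLOCK. The mice were C57BL/6 and 8 weeks old, had been kept in a light and dark cycle with free access to food, and spent the last days before collection in constant darkness. CT0 marks the start of the subjective day and CT12 the start of the subjective night; the labels also write these times as ZT. The WT mice carried the floxed Bmal1 alleles without, as far as stated, a CRE gene. The KO mice carried the same alleles and a CRE recombinase under a liver-specific promoter, which removes the exon for the DNA-binding domain. Which promoter was used, and whether the WT mice were littermates, is not given in the sources used here. Each of the 4 groups held 3 samples, although a protocol text in the labels speaks of fewer mice per genotype and time. The paper speaks of 3 mice of each genotype, and each sample was taken here as a separate mouse.

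Amino nitrogen released in the liver is passed to glutamate and aspartate by aminotransferases and to free ammonia by dehydratases and glutaminase, and the urea cycle turns ammonia and aspartate nitrogen into urea. The carbon skeletons are broken down along separate routes for tyrosine, tryptophan, histidine, lysine and the branched-chain amino acids. Methionine feeds the methyl donor S-adenosylmethionine; the homocysteine that remains is either methylated again with betaine or committed to cysteine through transsulfuration. The dimethylglycine left from betaine is oxidised stepwise to sarcosine and glycine, and glycine is split by the mitochondrial glycine cleavage system.

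Depth, recovered from the spacing of the low RPKM values, was about 11460000 to 19020000 reads per sample. The 4 groups separated on the first 2 principal components, which held 35.6% and 16.5% of the variance, and no library stood apart from its group. Arntl was read first as a check of the labels. It was at 16.3, 15.7 and 15.7 RPKM in WT at CT0 and at 5.91, 5.73 and 7.45 RPKM in KO at CT0, a log2 difference of -1.21 ± 0.13 (SE; limma, adjusted p = 0.00058). At CT12 the order was turned, with 1.26, 0.680 and 1.21 RPKM in WT and 4.37, 3.59 and 4.01 RPKM in KO, a log2 difference of 1.29 ± 0.13 (adjusted p = 6.3e-05). The row covers the whole transcript, so reads on the deleted exon could not be read apart from the rest, and the Arntl level alone does not check the deletion at CT12. Sums of cell type markers also differed between the groups. The summed level of 7 hepatocyte markers, led by Alb, was 47273 to 53300 RPKM in WT at CT0, 38364 to 46972 in WT at CT12, 29432 to 36525 in KO at CT0 and 27910 to 31270 in KO at CT12. The lower sum in KO lay in Alb, alone at 32747 to 37868, 26609 to 34269, 17320 to 21242 and 14012 to 16366 RPKM in the same order. The 5 cholangiocyte markers, led by Spp1, summed to 48.6 to 64.8 RPKM, 27.2 to 50.0, 93.1 to 152 and 88.4 to 124 in the same order. The higher sum in KO lay in Spp1, alone at 45.99 to 61.5, 26.5 to 47.7, 90.7 to 148 and 87.0 to 121 RPKM. These sums thus followed their leading gene and are no measure of how many cells of the type were present. In tissue RNA, fewer cells of a type, less RNA per cell and a change in the marker gene alone cannot be told apart. The part of these markers in the results that follow was not tested. In the same order, 7 Kupffer cell and macrophage markers summed to 147 to 194, 91.6 to 140, 131 to 198 and 99.1 to 173 RPKM, 6 endothelial markers to 102 to 129, 72.3 to 78.2, 122 to 128 and 56.2 to 126 RPKM, and 6 stellate cell and fibroblast markers to 128 to 178, 94.0 to 110, 163 to 194 and 118 to 153 RPKM. The 4 pancreas markers, led by Cela1 and with Cpa1 and Pnlip at 0 in every sample, summed to 6.71 to 10.96, 3.65 to 6.61, 14.9 to 19.3 and 13.9 to 21.6 RPKM. Nearly all of this was Cela1, alone at 6.71 to 10.6, 3.65 to 6.61, 14.9 to 19.3 and 13.9 to 21.6 RPKM. Lymphocyte markers summed to at most 2.97 RPKM and kidney markers to at most 0.0302 RPKM, with 3 of 4 kidney markers at 0 in every sample. The 5 erythroid markers, led by Hbb-b1, summed to 139 to 327, 94.6 to 166, 187 to 191 and 206 to 262 RPKM, so that the genotypes overlapped at CT0 and not at CT12.

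Of the 44 genes, 17 passed the threshold for the genotype difference averaged over both times, against a background of 11.5% of the 10799 genes tested (limma on log2(RPKM + 1), Benjamini-Hochberg adjusted p under 0.05 over all genes tested). Of these, 15 were higher in KO (background 7.44%) and 2 were lower (background 4.03%). At CT0, 3 genes passed (background 1.86%), all higher in KO; the count was 6 without KO CT0 replicate 2, 1 without WT CT0 replicate 1 or 3, and 0 without WT CT0 replicate 2 or KO CT0 replicate 3. At CT12, 12 genes passed (background 10.5%), 10 of them higher in KO (background 6.97%) and 2 lower (background 3.49%). The difference between genotypes depended on time for 3 genes, Cbs, Gldc and Amt (interaction term, background 1.49%). The median log2 difference of KO against WT over the 44 genes was 0.25 at CT0 and 0.11 at CT12, beside 0.01 and 0.08 over all genes tested.

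**Figure D1:**
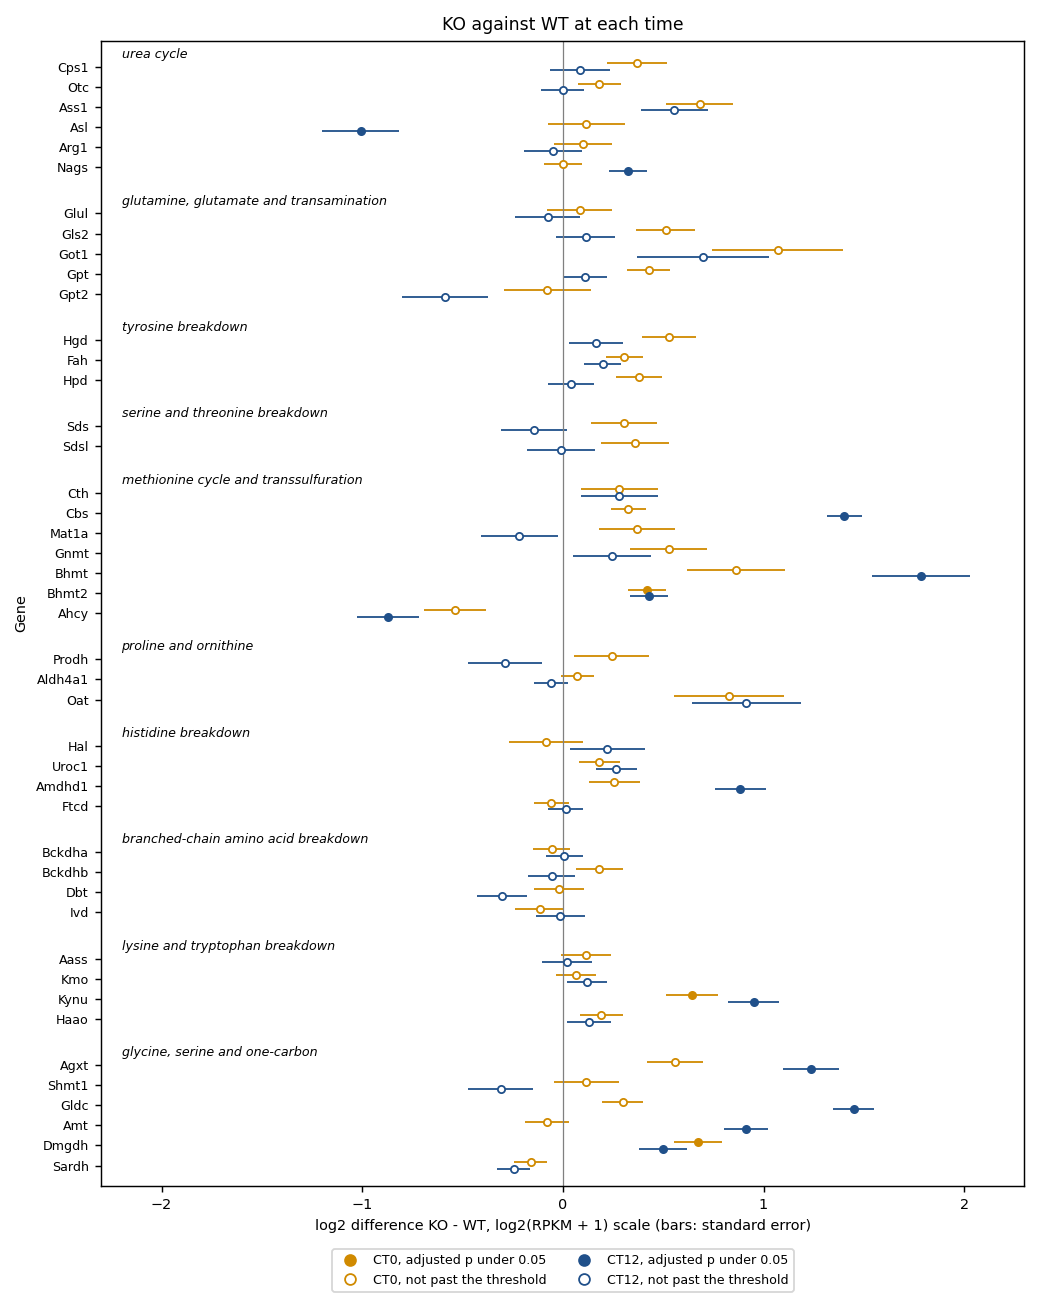
Log2 difference of KO against WT for the 44 tested genes, on the log2(RPKM + 1) scale, at CT0 (orange) and CT12 (blue), grouped by pathway; bars are standard errors and filled points passed an adjusted p of 0.05. At CT12 the filled points of Bhmt (1.79), Gldc (1.45), Cbs (1.40) and Agxt (1.24) lie far to the right, and those of Asl (-1.01) and Ahcy (-0.87) to the left.

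Along the subjective day, 10 of the 44 genes passed in WT (background 11.6%). Bhmt, Amt, Gldc, Cbs, Hal, Amdhd1, Agxt and Kynu fell from CT0 to CT12 (8 genes, background 7.88%), whereas Sds and Gpt2 rose (2 genes, background 3.71%). In KO, 0 of the 44 passed in the limma fit (background 2.43%), while 16 had an unadjusted p under 0.05, beside 19.9% of all genes tested. An unmoderated linear model counted 14 at an unadjusted p under 0.05. The count in KO rested on single libraries: without KO CT0 replicate 2 it was 5, and without WT CT12 replicate 2, which enters through the shared estimate of the spread, it was 1. The WT CT12 samples enter both the time comparison in WT and the genotype comparison at CT12, so a gene with low values in those samples passes more readily in both. The values of each comparison are therefore given side by side.

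**Figure D2:**
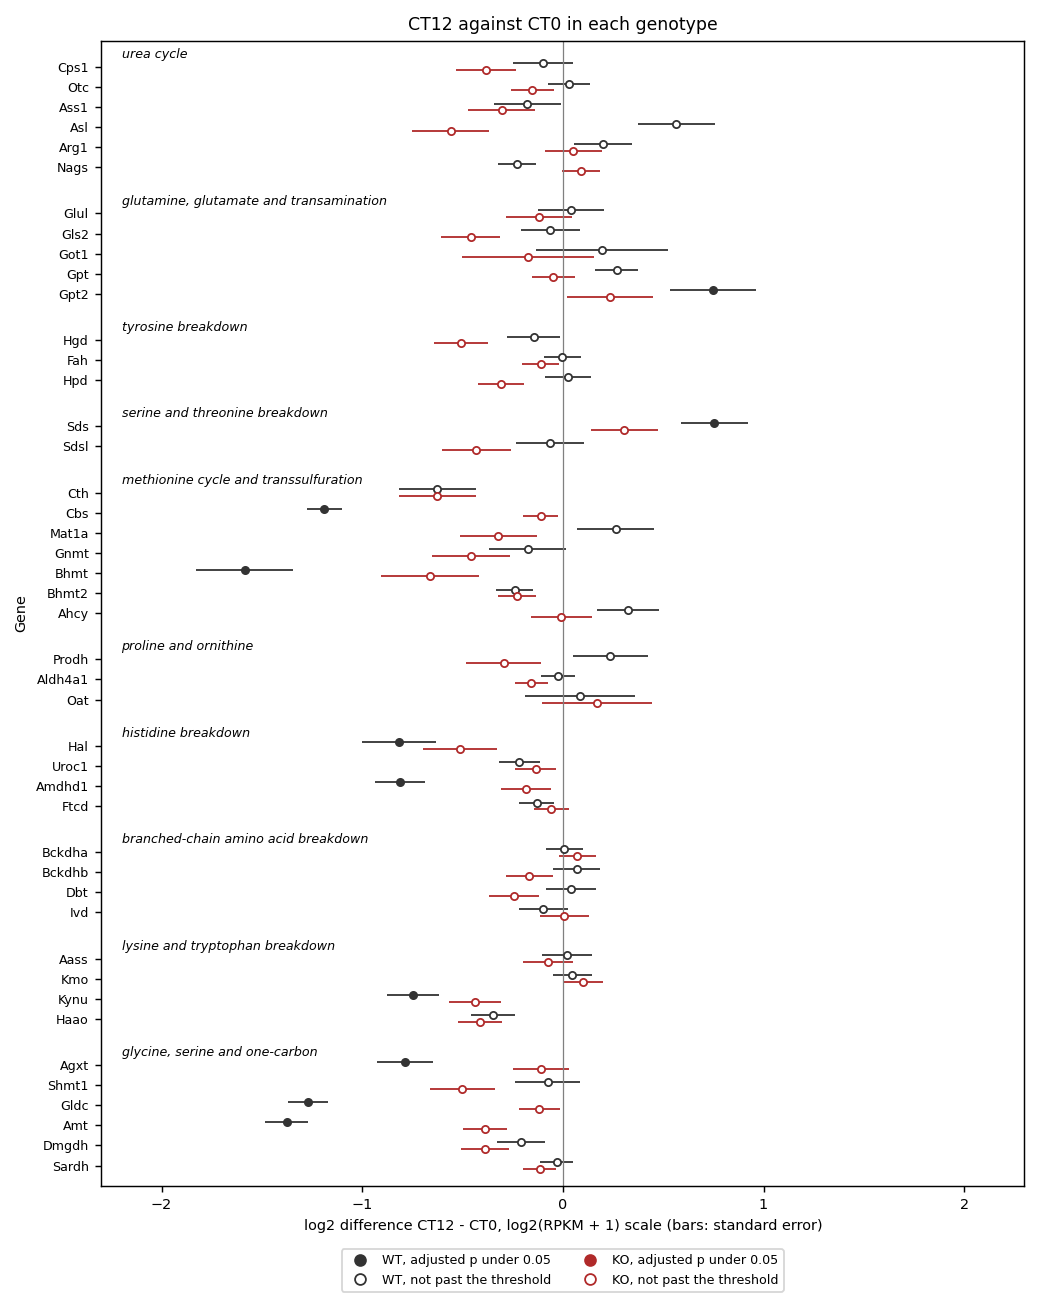
Log2 difference of CT12 against CT0 for the 44 tested genes, on the log2(RPKM + 1) scale, in WT (black) and KO (red), grouped by pathway; bars are standard errors and filled points passed an adjusted p of 0.05. Filled black points reach from -1.59 for Bhmt to 0.75 for Sds and Gpt2, and no red point is filled.

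Cbs, Gldc and Amt were the genes whose interaction passed. Cbs, cystathionine beta-synthase, commits homocysteine to cysteine synthesis (chr17:31749568-31774144, minus strand; positions of genes are spans in GENCODE vM1 on mm9). It stood at 235, 194 and 195 RPKM in WT at CT0, at 88.3, 92.0 and 91.0 in WT at CT12, at 269, 243 and 269 in KO at CT0 and at 242, 243 and 237 in KO at CT12. The 3 WT samples at CT12 were the low ones, and they overlapped with no other group. Cbs fell in WT to 0.434 of its CT0 level, a log2 difference of -1.19 ± 0.09 (SE; limma, adjusted p = 7e-06), while in KO the difference was -0.11 ± 0.09 (adjusted p = 0.51). KO exceeded WT 2.66-fold at CT12 (log2 1.40 ± 0.09, adjusted p = 2.3e-06) and 1.25-fold at CT0 (log2 0.33 ± 0.09, adjusted p = 0.092). The interaction term was 1.08 ± 0.12 (adjusted p = 0.0012). Each of the 6 Cbs transcript rows had its lowest group mean in WT at CT12. Rows of the same gene can count the same reads, so this is no separate support.

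Gldc and Amt encode the P-protein, which decarboxylates glycine, and the T-protein of the glycine cleavage system. Gldc (chr19:30172939-30249908, minus strand) measured 67.5, 64.3 and 68.4 RPKM in WT at CT0, 30.0, 22.8 and 29.0 in WT at CT12, 77.7, 82.1 and 87.0 in KO at CT0 and 73.0, 74.4 and 79.7 in KO at CT12. All KO samples lay above all WT samples at both times. The log2 difference over time was -1.27 ± 0.10 in WT (limma, adjusted p = 1.2e-05) and -0.12 ± 0.10 in KO (adjusted p = 0.56), with an interaction of 1.15 ± 0.14 (adjusted p = 0.0019). At CT12 KO exceeded WT 2.78-fold (log2 1.45 ± 0.10, adjusted p = 4.1e-06).

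Amt (chr9:108199184-108203902, plus strand) measured 42.0, 44.1 and 49.5 RPKM in WT at CT0, 16.2, 15.4 and 18.8 in WT at CT12, 47.9, 41.0 and 39.6 in KO at CT0 and 30.7, 30.9 and 35.8 in KO at CT12. WT at CT12 was again lowest without overlap; KO at CT12 lay between it and the CT0 groups, which overlapped with each other. The log2 difference over time was -1.38 ± 0.11 in WT (limma, adjusted p = 1.2e-05) and -0.39 ± 0.11 in KO (adjusted p = 0.086), with an interaction of 0.99 ± 0.15 (adjusted p = 0.0075). KO exceeded WT 1.93-fold at CT12 (log2 0.91 ± 0.11, adjusted p = 0.00021), and the log2 difference at CT0 was -0.08 ± 0.11 (adjusted p = 0.81). Gcsh and Dld, which encode the H-protein and the L-protein of the same cleavage system and were named after their values were seen, passed in no comparison. Over time in WT the log2 difference was -0.003 ± 0.10 for Gcsh (limma, adjusted p = 0.99) and -0.05 ± 0.11 for Dld (adjusted p = 0.81). Their interactions were 0.04 ± 0.14 (adjusted p = 0.94) and -0.10 ± 0.16 (adjusted p = 0.86).

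The 250 bases upstream of the annotated start are shown for these 3 genes, since their genotype difference was the one that depended on time and the clock factors bind short DNA motifs in promoters. They were taken from RefSeq on GRCm38.p6, a later build than the mm9 of the expression files, and are read 5′ to 3′ on the strand of the gene. The capitals mark a match, on either strand, to the E-box CACGTG of BMAL1 and CLOCK or to the AGGTCA half-site of nuclear receptors such as REV-ERB and ROR. The D-box TTANGTAA was searched as well.
Amt, chr9:108296655-108296904, plus strand: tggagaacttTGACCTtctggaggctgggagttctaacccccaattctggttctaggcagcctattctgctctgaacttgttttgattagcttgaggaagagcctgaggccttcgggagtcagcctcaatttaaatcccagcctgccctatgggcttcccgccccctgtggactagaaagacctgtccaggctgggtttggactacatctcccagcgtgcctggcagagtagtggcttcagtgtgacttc
Cbs, chr17:31637206-31637455, minus strand: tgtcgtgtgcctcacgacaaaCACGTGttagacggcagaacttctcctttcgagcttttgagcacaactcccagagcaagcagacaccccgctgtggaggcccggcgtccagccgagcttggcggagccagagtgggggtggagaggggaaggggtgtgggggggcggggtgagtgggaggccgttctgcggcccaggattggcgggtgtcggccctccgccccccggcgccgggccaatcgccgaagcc
Gldc, chr19:30175442-30175691, minus strand: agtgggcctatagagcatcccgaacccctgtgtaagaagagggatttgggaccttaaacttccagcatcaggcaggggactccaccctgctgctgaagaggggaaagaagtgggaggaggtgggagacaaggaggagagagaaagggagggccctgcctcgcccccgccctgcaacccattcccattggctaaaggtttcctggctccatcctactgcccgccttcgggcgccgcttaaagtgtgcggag

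The Amt window held 1 half-site, read as TGACCT on the gene's strand, 240 bases upstream of the start. In the Cbs window 1 E-box began 229 bases upstream, and in the Gldc window none of the 3 motifs was found. Of the 46 genes, 35 matched an entry of the RefSeq promoter table, with 37 promoters. The E-box was present for 2 of these 35 genes, Ass1 and Cbs, and in 6.02% of all 32851 promoters of the table. The half-site was present for 13 of the 35 genes and in 14.0% of all promoters, and the D-box for 0 of 35 and in 2.06%. A letter match in a window is a description of the sequence and no measurement of binding.

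**Figure D3:**
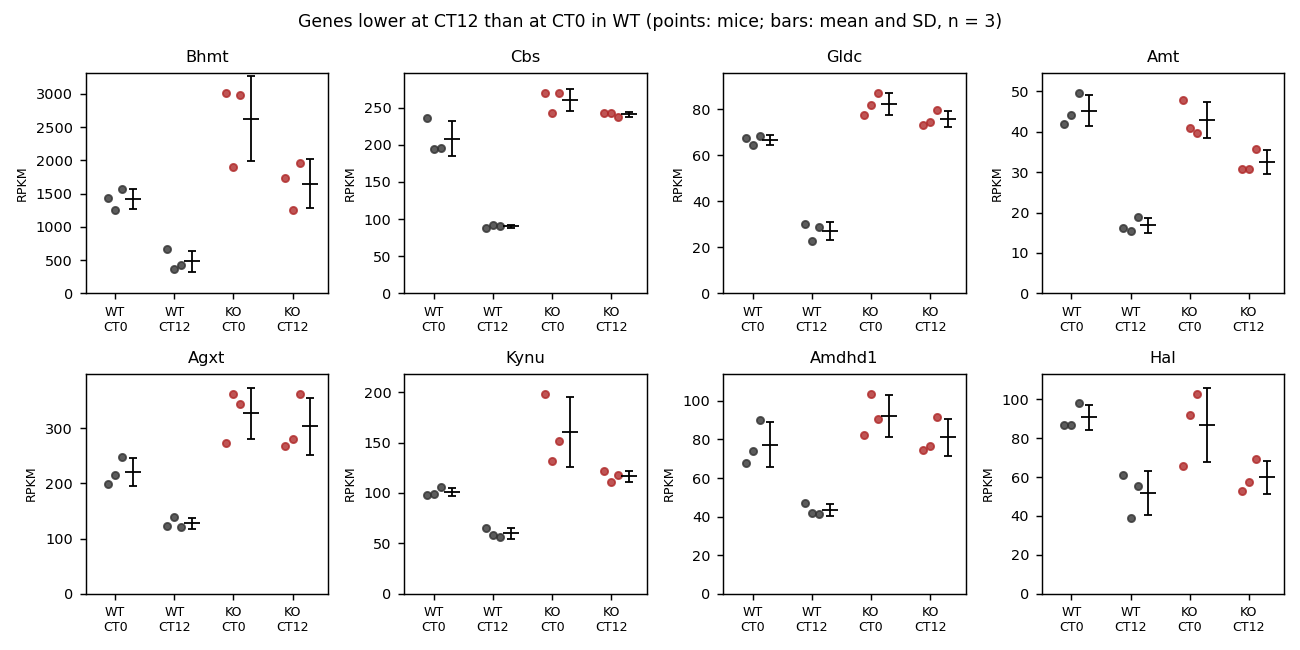
RPKM of each mouse for the 8 genes that fell over the subjective day in WT, on linear axes from 0, with WT in black, KO in red and the mean and SD of 3 samples as bars. For Cbs, Gldc, Amt, Agxt, Amdhd1, Kynu and Bhmt the 3 WT CT12 samples lie below every other sample, and for Hal they overlap with KO CT12.

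Bhmt, Bhmt2 and Dmgdh were higher in KO averaged over both times. Bhmt transfers a methyl group from betaine to homocysteine (chr13:94386846-94407916). It measured 1437, 1252 and 1566 RPKM in WT at CT0, 664, 361 and 432 in WT at CT12, 3007, 1892 and 2981 in KO at CT0 and 1737, 1250 and 1965 in KO at CT12. KO lay above WT at each time without overlap, and WT at CT12 below WT at CT0. KO exceeded WT 3.40-fold at CT12 (log2 1.79 ± 0.24, limma, adjusted p = 0.00058) and 1.85-fold at CT0 (log2 0.86 ± 0.24, adjusted p = 0.11). Over time Bhmt fell in WT by 1.59 ± 0.24 on the log2 scale (adjusted p = 0.0017), and in KO the log2 difference was -0.66 ± 0.24 (adjusted p = 0.16); the interaction of 0.92 ± 0.34 did not pass (adjusted p = 0.28). A stretch of 1872 bases of the Bhmt transcript recurs elsewhere in the genome, and the highest identity among its 3 matches was 99.4%. How reads that fit several places were assigned is not given in the sources used here, so the absolute level of Bhmt is uncertain.

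Bhmt2, a neighbouring enzyme that uses S-methylmethionine as methyl donor (chr13:94425675-94444257), measured 83.0, 76.6 and 80.6 RPKM in WT at CT0, 71.9, 61.2 and 70.1 in WT at CT12, 112, 104 and 106 in KO at CT0 and 91.6, 82.3 and 101 in KO at CT12. The KO samples were higher than the WT samples at each time. The ratio of KO to WT was 1.34 at CT0 (log2 0.42 ± 0.09, limma, adjusted p = 0.047) and 1.35 at CT12 (log2 0.43 ± 0.09, adjusted p = 0.012), and the interaction was 0.01 with a 95% interval of -0.28 to 0.30. The call at CT0 was lost in 13 of 22 alternatives, among them the omission of any 1 sample of the CT0 groups (log2 0.38 to 0.44, adjusted p up to 0.19), and of WT CT12 replicate 1 or 3 or KO CT12 replicate 1. Parts of the Bhmt2 transcript of up to 401 bases recur at many places in the genome.

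Dmgdh, which oxidises dimethylglycine to sarcosine and lies next to Bhmt2 on the opposite strand (chr13:94444388-94522786), measured 139, 141 and 149 RPKM in WT at CT0, 134, 101 and 140 in WT at CT12, 246, 202 and 242 in KO at CT0 and 171, 178 and 176 in KO at CT12. Every KO sample was above every WT sample. KO exceeded WT 1.61-fold at CT0 (log2 0.67 ± 0.12, limma, adjusted p = 0.015) and 1.40-fold at CT12 (log2 0.50 ± 0.12, adjusted p = 0.021). The call at CT0 was lost in 5 of 22 alternatives, among them the omission of WT CT0 replicate 1 or 2 or KO CT0 replicate 1 or 3 (log2 0.62 to 0.66, adjusted p up to 0.073). At CT12 it was lost in 6 of 22, among them the omission of WT CT12 replicate 2 or KO CT12 replicate 2 or 3 (log2 0.35 to 0.49, adjusted p up to 0.064). Bhmt, Bhmt2 and Dmgdh share a stretch of chromosome 13, where their spans do not overlap each other. The library kit does not mark strand, so reads of overlapping genes on opposite strands cannot be told apart. Dmgdh shares up to 215 exon bases with AW495222, and Bhmt up to 107 with Gm15622.

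Chdh, choline dehydrogenase, acts before Bhmt in the oxidation of choline to betaine and was named after its values were seen. It measured 26.9, 31.3 and 27.6 RPKM in WT at CT0, 30.7, 30.2 and 29.8 in WT at CT12, 22.3, 20.3 and 19.6 in KO at CT0 and 19.8, 23.8 and 20.5 in KO at CT12. All KO samples were below all WT samples, the reverse of the order in Dmgdh. Averaged over both times Chdh was lower in KO, with a log2 difference of -0.47 ± 0.07 (limma, adjusted p = 0.00068). The difference was -0.49 ± 0.09 at CT12 (adjusted p = 0.0055) and -0.45 ± 0.09 at CT0 (adjusted p = 0.034), the latter call lost in 9 of 22 alternatives, among them the omission of any 1 WT CT0 sample, WT CT12 replicate 1 or 3 or KO CT0 replicate 2 or 3 (log2 -0.49 to -0.38, adjusted p up to 0.16).

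Sardh, which takes sarcosine on to glycine, went the other way by a small amount. It measured 212, 230 and 248 RPKM in WT at CT0, 229, 211 and 234 in WT at CT12, 210, 200 and 206 in KO at CT0 and 180, 199 and 190 in KO at CT12. Averaged over both times it was lower in KO by -0.20 ± 0.06 on the log2 scale (limma, adjusted p = 0.043), a call lost in 11 of 21 alternatives. It held without WT CT0 replicate 1 or WT CT12 replicate 2 and was lost without any other sample (log2 -0.22 to -0.17, adjusted p up to 0.11).

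Ahcy, which hydrolyses S-adenosylhomocysteine to homocysteine, was the member of the methionine cycle that fell in KO. It measured 518, 622 and 614 RPKM in WT at CT0, 887, 558 and 788 in WT at CT12, 378, 369 and 463 in KO at CT0 and 401, 393 and 403 in KO at CT12. All KO samples were below all WT samples. The KO to WT ratio was 0.536 at CT12 (log2 -0.87 ± 0.15, limma, adjusted p = 0.0035) and 0.690 at CT0 (log2 -0.54 ± 0.15, adjusted p = 0.11). The row used is short, 341 bases, and had 2 matches elsewhere in the genome. The longest match was 275 bases, and the highest identity among the 2 was 100%. The other Ahcy row, of 2543 bases, had group means of 373 RPKM in WT and 277 in KO at CT0 and of 481 and 262 at CT12.

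The remaining genes of the methionine cycle did not pass in any comparison. Mat1a, which makes S-adenosylmethionine in liver, had group means of 812 and 983 RPKM in WT and 1062 and 857 in KO, at CT0 and CT12. Gnmt, which spends S-adenosylmethionine on glycine, had 964 and 855 in WT and 1426 and 1007 in KO. Cth, which follows Cbs in transsulfuration, had 208 and 138 in WT and 258 and 164 in KO. Its log2 difference over time was -0.63 ± 0.19 in WT (limma, adjusted p = 0.058) and -0.63 ± 0.19 in KO (adjusted p = 0.11), and the 95% interval of the interaction ran from -0.60 to 0.60. For Gnmt and Mat1a the 3 mice of KO at CT0 spread widely, from 1045 to 1914 RPKM and from 838 to 1228 RPKM.

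Agxt, Kynu and Amdhd1 likewise fell over the day in WT and exceeded WT in KO at CT12, with interaction terms that did not pass. Agxt, which detoxifies glyoxylate by transamination with alanine (chr1:95031822-95041984), measured 199, 215 and 249 RPKM in WT at CT0, 122, 138 and 122 in WT at CT12, 274, 363 and 344 in KO at CT0 and 269, 280 and 362 in KO at CT12. KO was above WT without overlap at each time. The KO to WT ratio was 1.48 at CT0 (log2 0.56 ± 0.14, limma, adjusted p = 0.071) and 2.38 at CT12 (log2 1.24 ± 0.14, adjusted p = 0.00014). The log2 difference over time was -0.79 ± 0.14 in WT (adjusted p = 0.004) and -0.11 ± 0.14 in KO (adjusted p = 0.71), and the interaction of 0.68 ± 0.20 had an adjusted p of 0.15.

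Kynu, the kynureninase of tryptophan breakdown (chr2:43410849-43538235), measured 98.4, 99.0 and 106 RPKM in WT at CT0, 65.7, 58.2 and 55.9 in WT at CT12, 199, 132 and 151 in KO at CT0 and 122, 111 and 117 in KO at CT12. Here KO samples lay above all WT samples at both times, and CT12 lay below CT0 in both genotypes. KO exceeded WT 1.59-fold at CT0 (log2 0.64 ± 0.13, limma, adjusted p = 0.027) and 1.95-fold at CT12 (log2 0.95 ± 0.13, adjusted p = 0.00052). The call at CT0 was lost in 6 of 22 alternatives, among them the omission of any WT CT0 sample or of KO CT0 replicate 3 (log2 0.62 to 0.68, adjusted p up to 0.11). Over time the log2 difference was -0.75 ± 0.13 in WT (adjusted p = 0.0032) and -0.44 ± 0.13 in KO (adjusted p = 0.093).

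Hal and Amdhd1, the first and the third enzyme of histidine breakdown, lie side by side (chr10:92951513-92982049 and chr10:92986083-93002778). Amdhd1 measured 67.7, 74.2 and 90.1 RPKM in WT at CT0, 47.1, 41.8 and 41.1 in WT at CT12, 82.3, 104 and 90.7 in KO at CT0 and 74.5, 76.8 and 91.9 in KO at CT12. WT at CT12 was the low group and the other 3 groups overlapped. Amdhd1 was higher in KO 1.87-fold at CT12 (log2 0.88 ± 0.13, limma, adjusted p = 0.00078), with a log2 difference over time of -0.81 ± 0.13 in WT (adjusted p = 0.0018) and -0.18 ± 0.13 in KO (adjusted p = 0.45). Hal passed only with time in WT, from 90.7 ± 6.38 to 51.8 ± 11.4 RPKM (SD, n = 3; log2 -0.82 ± 0.19, limma, adjusted p = 0.016; without WT CT0 replicate 3, -0.76 and adjusted p = 0.059); in KO its means were 86.9 and 60.0 RPKM (log2 -0.51 ± 0.19, adjusted p = 0.16). Uroc1 and Ftcd, the remaining enzymes of the route, had group means of 133 to 175 RPKM and 129 to 142 RPKM and passed in no comparison.

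Within the urea cycle the 6 genes did not move together. Cps1, which fixes ammonia as carbamoyl phosphate, Otc, which joins it to ornithine, and Arg1, which releases urea, passed in no comparison. Cps1 measured 1430, 1360 and 1390 RPKM in WT at CT0, 1719, 1122 and 1140 in WT at CT12, 1977, 1605 and 1836 in KO at CT0 and 1466, 1257 and 1425 in KO at CT12. Its log2 difference of KO against WT was 0.37 at CT0, with a 95% interval of 0.04 to 0.70 and an adjusted p of 0.28 in limma, and 0.09 at CT12, with an interval of -0.24 to 0.41. Otc had group means of 194, 198, 220 and 198 RPKM, and Arg1 of 614, 710, 665 and 684 RPKM, in WT at CT0, WT at CT12, KO at CT0 and KO at CT12.

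Ass1 and Asl, the successive enzymes that make arginine from citrulline and aspartate, differed from each other in KO. Ass1 (chr2:31325727-31376192) measured 1658, 1446 and 1561 RPKM in WT at CT0, 1610, 1265 and 1272 in WT at CT12, 3262, 1907 and 2485 in KO at CT0 and 2080, 2107 and 1874 in KO at CT12. Every KO sample was above every WT sample. Averaged over both times, Ass1 was higher in KO by 0.62 ± 0.12 on the log2 scale (limma, adjusted p = 0.0052); the KO to WT ratio was 1.64 at CT0, where the adjusted p was 0.067, and 1.46 at CT12, where it was 0.056. A stretch of 1596 bases of the Ass1 transcript recurs elsewhere in the genome at 99.2% identity, so its level is uncertain in the same way as that of Bhmt.

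Asl (chr5:130487128-130501002) measured 285, 275 and 257 RPKM in WT at CT0, 506, 339 and 382 in WT at CT12, 358, 209 and 341 in KO at CT0 and 217, 204 and 180 in KO at CT12. At CT12 the KO samples were below the WT samples, and at CT0 the genotypes overlapped. The KO to WT ratio at CT12 was 0.490 (log2 -1.01 ± 0.19, limma, adjusted p = 0.0053), and the log2 difference at CT0 was 0.12 ± 0.19 (adjusted p = 0.85). Over time the log2 difference was 0.57 ± 0.19 in WT (adjusted p = 0.078) and -0.56 ± 0.19 in KO (adjusted p = 0.14), and the interaction of -1.12 ± 0.27 had an adjusted p of 0.072, which passed without KO CT0 replicate 2 (interaction -1.37). All 7 Asl rows, which can count the same reads, had their lowest group mean in KO at CT12.

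Nags makes N-acetylglutamate, the activator that Cps1 requires. It measured 25.7, 24.5 and 26.4 RPKM in WT at CT0, 23.1, 19.0 and 23.0 in WT at CT12, 27.7, 23.8 and 25.4 in KO at CT0 and 25.7, 27.5 and 28.8 in KO at CT12. KO lay above WT at CT12, 1.26-fold (log2 0.32 ± 0.09, limma, adjusted p = 0.0498), a call that was lost in 17 of 22 alternatives and when any sample other than KO CT0 replicate 1 was left out (log2 0.24 to 0.37, adjusted p up to 0.17). Nags shares up to 443 exon bases with Gm11586 on the opposite strand.

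**Figure D4:**
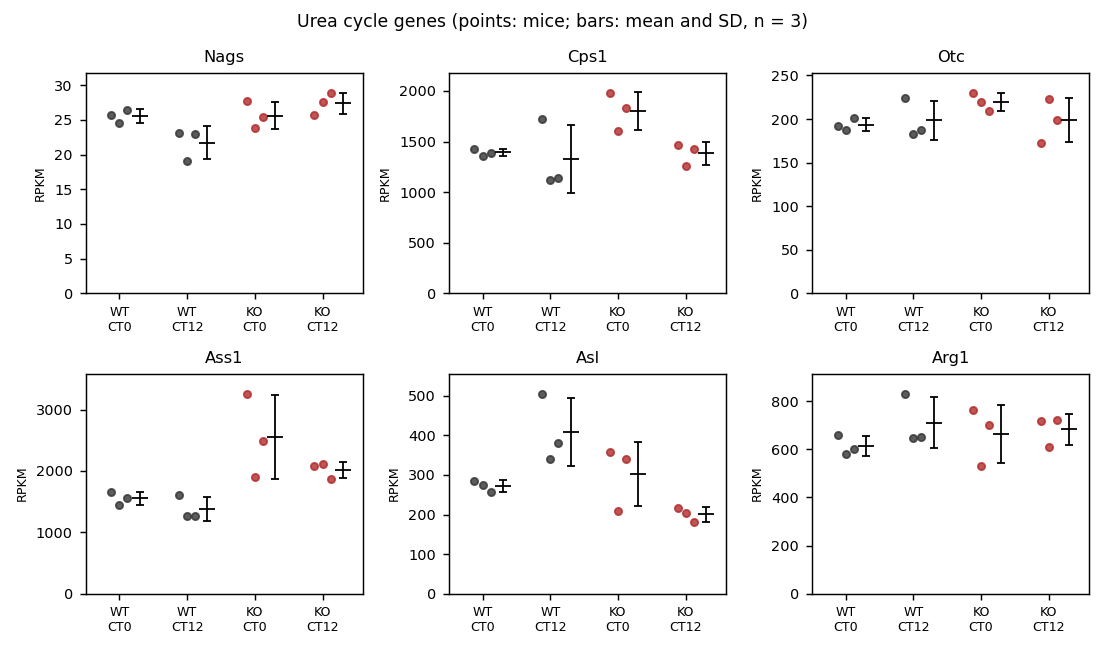
RPKM of each mouse for the 6 urea cycle genes, on linear axes from 0, with WT in black, KO in red and the mean and SD of 3 samples as bars. Ass1 is higher in each KO sample than in any WT sample. Asl runs from a mean of 409 RPKM in WT at CT12 to 200 in KO at CT12. Cps1, Otc and Arg1 overlap between genotypes at CT12. At CT0 Arg1 overlaps, while the KO samples of Cps1 and Otc lie above the WT samples.

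Among the genes that hand nitrogen to and from glutamate, Got1 and Gpt were higher in KO averaged over both times. Got1, the cytosolic aspartate aminotransferase, measured 78.4, 68.4 and 69.4 RPKM in WT at CT0, 138, 52.2 and 77.9 in WT at CT12, 243, 111 and 130 in KO at CT0 and 169, 117 and 123 in KO at CT12. WT CT12 replicate 1 and KO CT0 replicate 1 were the high samples of their groups, and the genotypes overlapped at CT12. The averaged log2 difference was 0.88 ± 0.23 (limma, adjusted p = 0.028), a call lost in 6 of 21 alternatives. It was lost without WT CT0 replicate 2 or 3, WT CT12 replicate 2 or 3, or KO CT12 replicate 1 (log2 0.72 to 0.87, adjusted p up to 0.063).

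Gpt, the main alanine aminotransferase of liver cytosol, had group means of 113 ± 7.15 and 137 ± 11.5 RPKM in WT and 153 ± 16.9 and 148 ± 14.9 in KO at CT0 and CT12 (SD, n = 3). The samples were at 113, 107 and 121, then 150, 128 and 134 RPKM in WT, and at 157, 135 and 168, then 146, 134 and 164 RPKM in KO. The genotypes separated at CT0 and overlapped at CT12. The averaged log2 difference was 0.27 ± 0.08 (limma, adjusted p = 0.039), a call lost in 10 of 21 alternatives. It held without WT CT0 replicate 3, WT CT12 replicate 1, KO CT0 replicate 2 or KO CT12 replicate 2 and was lost without any other sample (log2 0.23 to 0.27, adjusted p up to 0.10). Gpt2, its mitochondrial counterpart, passed only with time in WT, from 90.6 ± 0.235 to 153 ± 14.2 RPKM (log2 0.75 ± 0.21, adjusted p = 0.043, lost in 10 of 22 alternatives, among them the omission of any WT sample, KO CT0 replicate 3 or KO CT12 replicate 2 or 3, with log2 0.67 to 0.78); in KO it was at 90.2 ± 34.6 and 102 ± 15.8 RPKM. At CT12 all KO samples of Gpt2 were below all WT samples. That log2 difference was -0.59 ± 0.21 (limma, adjusted p = 0.11), and it passed in 4 of 22 alternatives. Gls2, the liver glutaminase, was at 249, 157 and 190 RPKM in KO at CT0 and between 124 and 151 RPKM in the other groups, with an averaged log2 difference of 0.31 ± 0.10 (adjusted p = 0.074). Glul, the glutamine synthetase of pericentral hepatocytes, had group means between 524 and 581 RPKM; its row is 371 bases long, of which 342 recur elsewhere at 95.9% identity.

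Sds, serine dehydratase, which releases ammonia from serine, rose with time in WT, from 77.3 ± 3.18 to 132 ± 14.3 RPKM (SD, n = 3; log2 0.75 ± 0.17, limma, adjusted p = 0.014; without WT CT12 replicate 1, 0.67 and adjusted p = 0.057). In KO it was at 97.9 ± 26.1 and 119 ± 16.2 RPKM (log2 0.31 ± 0.17, adjusted p = 0.33), and the difference between the changes was not past the threshold (interaction -0.45 ± 0.23, adjusted p = 0.47). The related Sdsl stayed between 5.11 and 10.4 RPKM in all samples. Sds shares up to 360 exon bases with Plbd2 on the opposite strand.

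Oat, which sets ornithine against glutamate, measured 409, 304 and 265 RPKM in WT at CT0, 387, 228 and 445 in WT at CT12, 782, 412 and 574 in KO at CT0 and 591, 774 and 576 in KO at CT12. The genotypes did not overlap at either time, though the lowest KO sample at CT0 stood just above the highest WT sample. The averaged log2 difference was 0.87 ± 0.19 (limma, adjusted p = 0.012), and neither time alone passed, with 0.83 ± 0.27 at CT0 (adjusted p = 0.17) against 0.91 ± 0.27 at CT12 (adjusted p = 0.054). Prodh and Aldh4a1, which convert proline to glutamate, had group means of 83.1 to 105 RPKM and 83.4 to 93.4 RPKM and passed in no comparison.

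**Figure D5:**
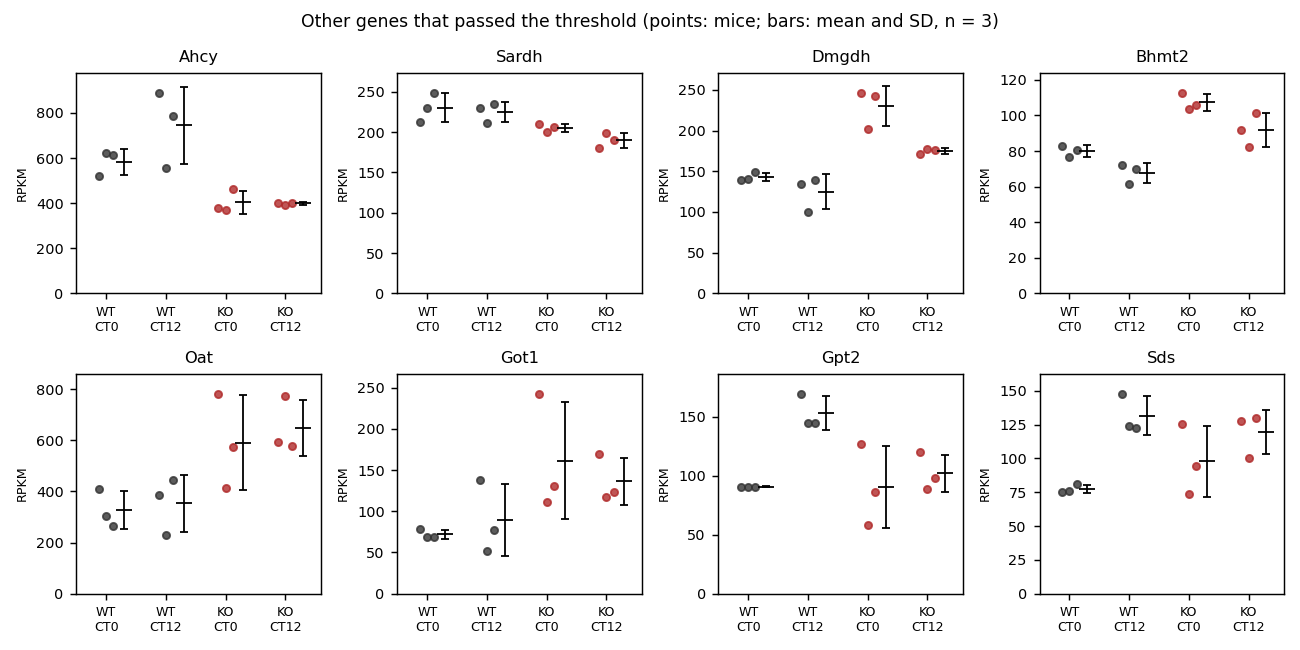
RPKM of each mouse for 8 further genes that passed in at least 1 comparison, on linear axes from 0, with WT in black, KO in red and the mean and SD of 3 samples as bars. Ahcy is lower and Dmgdh and Bhmt2 are higher in KO at each time, whereas Sds differs mainly between the WT times. For Gpt2 the WT CT12 samples lie above every other sample.

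In tyrosine breakdown, Hgd and Fah, the enzymes that open the ring of homogentisate and split fumarylacetoacetate, passed for the averaged genotype difference by small amounts. Hgd measured 358, 342 and 329 RPKM in WT at CT0, 363, 282 and 290 in WT at CT12, 602, 420 and 477 in KO at CT0 and 318, 365 and 361 in KO at CT12, so that the genotypes separated at CT0 and overlapped at CT12. Its averaged log2 difference was 0.35 ± 0.09 (limma, adjusted p = 0.034), a call lost in 10 of 21 alternatives. It held without WT CT12 replicate 1, KO CT0 replicate 2 or KO CT12 replicate 1 and was lost without any other sample (log2 0.28 to 0.36, adjusted p up to 0.082). Fah measured 411, 375 and 427, then 447, 376 and 388 RPKM in WT, and 518, 480 and 500, then 464, 431 and 494 RPKM in KO, with an averaged log2 difference of 0.25 ± 0.06 (limma, adjusted p = 0.025). That call was lost in 6 of 21 alternatives, among them the omission of WT CT0 replicate 2, WT CT12 replicate 2 or 3, KO CT0 replicate 3 or KO CT12 replicate 3 (log2 0.23 to 0.25, adjusted p up to 0.074). Hpd, which makes homogentisate, had group means of 1163 and 1191 RPKM in WT and 1510 and 1217 in KO, with a log2 difference at CT0 of 0.38 ± 0.11 (adjusted p = 0.14).

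The genes of branched-chain amino acid breakdown passed in no comparison. Bckdha and Bckdhb encode the subunits of the first component of the branched-chain ketoacid dehydrogenase, Dbt encodes its second component, and Ivd acts on the leucine branch. Their group means ranged from 85.1 to 89.6 RPKM for Bckdha, 45.1 to 51.3 for Bckdhb, 23.8 to 29.9 for Dbt and 42.6 to 46.2 for Ivd. Of these 4 genes 0 passed in limma in any comparison; 1 value, the KO against WT difference of Dbt at CT12, had an unadjusted p under 0.05 (log2 -0.30 ± 0.12, adjusted p = 0.15), also in the unmoderated model. Aass, of lysine breakdown, and Kmo and Haao, of tryptophan breakdown, passed in no comparison either, with group means of 131 to 142, 104 to 118 and 285 to 418 RPKM. For Haao the log2 difference over time was -0.35 ± 0.11 in WT (adjusted p = 0.059) and -0.41 ± 0.11 in KO (adjusted p = 0.071). Shmt1, the cytosolic serine hydroxymethyltransferase, had group means of 83.6 to 122 RPKM.

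Of the 44 tested genes, 22 passed in at least 1 of the 6 comparisons (background 21.4%) and 22 in none. The levels are per transcript length, and Ass1, Bhmt and Cps1 were highest, with means over all samples of 1877, 1545 and 1477 RPKM, and Nags and Sdsl lowest, with 25.1 and 7.20 RPKM. KO CT0 replicate 1 was the highest and KO CT0 replicate 2 the lowest of their group for 25 of the 44 genes, among them Ass1, Gls2, Got1, Hgd and Gnmt. The share of all genes tested with this order was not counted, so it is not shown to be particular to these genes. The summed level of 9 pericentral hepatocyte genes, led by Cyp2e1, was 2131 to 2845 RPKM in WT at CT0, 3734 to 4391 in WT at CT12, 1687 to 2853 in KO at CT0 and 3257 to 3645 in KO at CT12. That of 9 periportal hepatocyte genes, led by Pck1 and with Gls2, Sds, Hal and Arg1 among them, was 2235 to 2271 RPKM in WT at CT0, 2849 to 3088 in WT at CT12, 2164 to 2401 in KO at CT0 and 2788 to 3394 in KO at CT12. The genotypes overlapped at each time for the periportal genes, and at CT0 for the pericentral ones.

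A further 73 genes of amino acid transport and metabolism were read for comparison; 70 were in the files and 65 passed the filter. Averaged over both times, 6 of these 65 were higher in KO (9.23%, background 7.44%) and 7 lower (10.8%, background 4.03%). At CT12, 5 were higher (7.69%, background 6.97%) and 7 lower (10.8%, background 3.49%), and at CT0 1 was higher (1.54%, background 1.02%) and 2 lower (3.08%, background 0.843%). The shares that were higher in KO were thus near the background. Over time, 6 rose in WT (9.23%, background 3.71%) and 5 fell (7.69%, background 7.88%), and in KO 2 rose (3.08%, background 1.1%) and 3 fell (4.62%, background 1.32%). The interaction passed for 1, Grhpr (1.54%, background 1.49%).

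Agxt2, a mitochondrial alanine-glyoxylate aminotransferase, was at 66.9 ± 7.48 RPKM in WT and 109 ± 7.91 in KO at CT12 (SD, n = 3; log2 0.70 ± 0.10, limma, adjusted p = 0.00075). Grhpr, which reduces glyoxylate, was at 101 ± 5.46 and 156 ± 8.54 RPKM (log2 0.62 ± 0.09, adjusted p = 0.00064), and its interaction passed (0.67 ± 0.12, adjusted p = 0.020), a call lost without WT CT0 replicate 2 or 3, WT CT12 replicate 1 or 3 or KO CT12 replicate 2 (0.62 to 0.66). Slc25a15, the mitochondrial ornithine carrier of the urea cycle, was at 51.6 ± 3.05 and 77.5 ± 2.08 RPKM (log2 0.58 ± 0.12, adjusted p = 0.011). Among the genes that were lower in KO at CT12, the glutamine transporter Slc38a3 was at 580 ± 38.3 RPKM in WT and 360 ± 16.8 in KO (log2 -0.69 ± 0.13, adjusted p = 0.0045). The cationic amino acid transporter Slc7a2 was at 126 ± 17.4 and 86.4 ± 2.43 RPKM (log2 -0.54 ± 0.10, adjusted p = 0.0042). Afmid, which precedes Kynu in tryptophan breakdown, was at 51.8 ± 6.86 and 33.5 ± 2.79 RPKM (log2 -0.61 ± 0.14, adjusted p = 0.018; -0.60 to -0.52 and not past the threshold without WT CT12 replicate 1 or 3 or KO CT12 replicate 2), and Hao1, which produces glyoxylate, at 122 ± 10.7 and 84.8 ± 14.0 RPKM (log2 -0.52 ± 0.11, adjusted p = 0.011).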

How the data were processed

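Liver RNA of 12 samples was sequenced after a TruSeq RNA v2 preparation. Per the labels, the authors aligned reads to mm9 with TopHat2 and used bedtools 2.19.1, and they deposited RPKM values for 46585 transcript rows per sample, with strand use and multiple hits not given in the sources used here. Whole-read steps in low RPKM values (95.4 to 96.2% of values up to 10 reads within 0.05 read) gave the depth, which bounds counting error only. RPKM were taken as log2(RPKM + 1) and tested with limma 3.58.1 (R 4.3.3; all 4 groups in 1 fit, trended moderation, Benjamini-Hochberg over 10799 genes with a group mean of at least 1 RPKM, threshold 0.05). A fold change on this scale understates low genes. Genome copies were sought with blastn 2.17.0 at 95% identity over 100 bases. The fit was checked on simulated data. Alternatives changed the pseudocount, filter, scaling, row choice, model and samples. Members, gene lists and markers were chosen with earlier results of these data known. Values per sample were given for Arntl and each gene past the threshold in a genotype or interaction term; genes past it only with time, and the others, by group. Up to 4 further genes in each direction were named, and Chdh, Dld and Gcsh after their values were seen. A gene of the comparison lists is not reported here. No source says that replicate numbers mark a shared litter or day. The p-values measure the spread between these samples, which is that between mice only if each sample was a separate mouse.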

Additional observations from a re-analysis of the deposited data

Results flagged for a closer look

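For Cbs, Gldc, Amt, Grhpr and Arntl the genotype difference was not the same at CT0 and CT12 by the interaction term of the fit (limma, Benjamini-Hochberg adjusted). Among the urea cycle and amino acid genes the interaction was 1.08 for Cbs (log2, adjusted p = 0.0012), 1.15 for Gldc (adjusted p = 0.0019) and 0.99 for Amt (adjusted p = 0.0075), in each case with 3 of 3 WT samples at CT12 below every other sample. These calls were kept in all 21 alternatives. Among the further genes it was 0.67 for Grhpr (adjusted p = 0.020), lost in 5 of 21. For Arntl, the targeted gene, it was 2.50 (adjusted p = 7.2e-05), with the KO samples below WT at CT0 and above WT at CT12.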

How the results depend on the processing

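The 44 genes gave 45 calls over the 6 comparisons; 31 were kept in every alternative, 14 were lost in at least 1, and 0 changed direction. Counts in parentheses are those over all genes in the same fit. The number of genes called at CT0, 3 (201), was 0 (61) with no filter, 6 (254) with quantile normalization, 18 (1495) in the unmoderated model at an unadjusted p, and 1 (107) with only the 6 samples compared. At CT12, 12 (1130), the unmoderated model counted 19 (2618). With time in WT, 10 (1252), it counted 16 (2771), and with time in KO, 0 (262), it counted 14 (2052). There quantile normalization and median-of-ratios scaling, the latter chosen after seeing the data, each gave 2 (292 and 300). For the interaction, 3 (161), the unmoderated model counted 7 (1323). Leaving out each sample in turn gave 12 to 18 genes (939 to 1183) for the averaged genotype difference, 0 to 6 (76 to 208) at CT0, 10 to 15 (728 to 1279) at CT12, 8 to 12 (660 to 1394) with time in WT, 0 to 5 (65 to 260) with time in KO and 3 to 4 (87 to 146) for the interaction.

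A replicate block in the fit gave counts of 19 (1180) for the averaged difference, 8 (173) at CT0, 15 (1075) at CT12, 13 (1198) with time in WT, 0 (225) with time in KO and 4 (128) for the interaction. The correlations between samples of different groups did not show a pairing by number. Same-numbered samples had a mean correlation of 0.01 (-0.07 to 0.14) and different numbers -0.004 (-0.19 to 0.11). Of 12 samples, 6 correlated best with their own number. Between WT and KO at CT12 the value was 0.001 for number 1, 0.14 for number 2 and 0.13 for number 3. A mean over all pairs cannot decide whether the numbers pair some of the groups.

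With 3 mice per group, a gene that passed in no comparison is not shown to be unchanged. Depth limits Psat1 and Phgdh, with at most 7 and 6 reads per sample on the rows used, of 588 and 446 bases. Both genes also have longer rows, whose reads were not counted.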
